A study of Mus musculus with 6 samples.

Results

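The transcripts examined here were those of 8 transcription factors that set and maintain the identity of the intestinal epithelium, Cdx1, Cdx2, Gata4, Gata5, Gata6, Hnf4a, Hnf4g and Isx. They were taken by gene symbol from the 19616 genes of the deposited count table, and each of the 8 symbols was found once. All 8 were among the 15618 genes with enough counts to be tested. RNA was sequenced from jejunal intestinal epithelial cells (IEC), enriched by treating the tissue with EDTA, of 3 wildtype control mice (C1, C3 and C3-3) and 3 villin-Cre Hdac1-/-; Hdac2-/- mice (H1, H5 and H9, called Hdac1/2-deleted below), all aged 3 months. Each mouse gave 1 library. Hdac1 and Hdac2 encode the class I histone deacetylases HDAC1 and HDAC2, and villin-Cre drives recombination in epithelial cells and not in the other cells of the gut wall. The animals had a mixed genetic background.

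In the intestine, CDX homeodomain proteins specify an intestinal rather than a gastric or oesophageal fate, GATA zinc finger proteins set differences between the proximal and distal small intestine, and HNF4 nuclear receptors bind at many genes of enterocyte metabolism and brush border. ISX is a homeodomain repressor that acts downstream of retinoic acid on genes of carotenoid uptake and cleavage. HDAC1 and HDAC2 work in corepressor complexes that remove acetyl groups from histones and other proteins.

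In the Hdac1/2-deleted mice, 2 of the 8 factors, Gata6 and Hnf4g, were lower and 0 were higher at an adjusted p of at most 0.05 (edgeR's quasi-likelihood F test, with p-values adjusted by the Benjamini-Hochberg method over every gene tested). The background is large, since 40.8% of all genes tested passed the same limit, 20.3% lower and 20.5% higher. These shares are also the background for every count of listed genes below. At a change of at least 2-fold, 0 of the 8 factors passed, against 25.2% of all genes. At an unadjusted p under 0.05 the count was 4, with Cdx2 and Isx added. The share of all genes at that looser limit was not counted and cannot be below 40.8%, so the count of 4 is not read as a result. The levels of the groups did not overlap for 4 of the 8 factors, Gata6, Hnf4a, Hnf4g and Isx, and for 53.2% of all genes. The median log2 fold change of the 8 was -0.19, beside -0.01 over all genes.

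**Figure D1:**
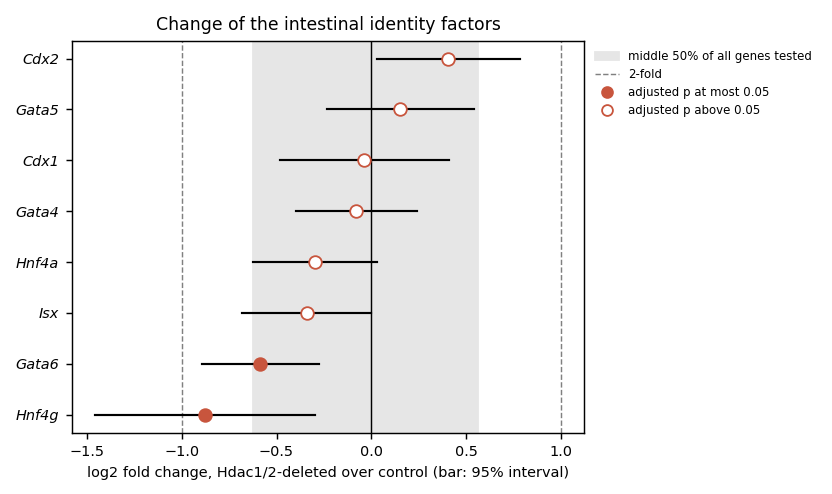
Log2 fold change of each factor in Hdac1/2-deleted over control IEC with its 95% interval (x axis), filled where the adjusted p was at most 0.05, over a grey band holding the middle 50% of all genes tested. Gata6 and Hnf4g carry filled points at -0.58 and -0.88, and no point reaches the dashed 2-fold lines.

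Total counts on genes lay between 36111035 (H5) and 65902344 (C1) per mouse, and each factor had at least 2740 counts in every library, so counting error was small beside the spread between mice. Levels are CPM, counts scaled to a common library size with edgeR's TMM factors, as mean ± SD (n = 3 mice). Hdac1 was at 40.8 ± 7.33 CPM in control and 3.77 ± 1.16 CPM in Hdac1/2-deleted mice. Hdac2 was at 27.7 ± 4.72 and 24.5 ± 2.70 CPM, with overlapping ranges, and did not pass (log2 fold change -0.18, edgeR quasi-likelihood adjusted p = 0.44). The exons removed from either gene are not given in the sources used here, so a gene-level count is a partial check of the deletion. The epithelial label was checked with 9 markers, whose summed level was 17489 to 19508 CPM in control and 12014 to 14703 CPM in Hdac1/2-deleted mice. Of these, 3 were lower, 1 was higher, Krt18 at 1.02, and 5 did not pass (log2 fold changes). Epcam was lower at -0.62, past the limit in 11 of 15 alternatives, not without C3-3 or H5. Fabp2, also listed below as an HNF4 target, fell from 3398 to 774 CPM, a large part of the fall of the sum. Those that did not pass were Vil1 at -0.47, Cdh1 at -0.40, Cdh17 at -0.18, Krt8 at 0.02 and Krt19 at 0.35. In bulk RNA of this kind, fewer cells of a type and less RNA per cell cannot be told apart. Markers of stroma, muscle, vessel and mesothelium summed to 70.9 CPM in C1, 50.4 in C3 and 9.69 in C3-3, and to 19.8 to 30.6 CPM in Hdac1/2-deleted mice, and 7 of 13 tested passed, 3 higher and 4 lower. Myh11, a smooth muscle myosin, had 1680, 700 and 24 counts in the controls and 1, 0 and 0 in the Hdac1/2-deleted mice, and its call was lost without H1 or H9. Immune cell markers summed to 102 to 125 CPM in control and 53.3 to 100.6 CPM in Hdac1/2-deleted mice, with 2 of 11 higher and 1 lower. Of 15 secretory and tuft cell markers, 9 were lower and 2 higher. The part of these markers in the results below was not tested. Among the libraries, C3 stood apart with 3987 counts on chromosome Y genes, against 309 to 590 in the others.

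Cdx1 and Cdx2 are the caudal-type homeobox genes of the gut, Cdx2 being required for intestinal specification. Cdx2 (ENSMUSG00000029646) lies on the minus strand of chromosome 5 from 147300805 to 147307270 (GRCm38, as are all gene positions here). Its level was 150.5 CPM in C1, 132 in C3 and 188 in C3-3, and 209.8 CPM in H1, 186 in H5 and 227 in H9. H1 and H9 were above every control, and H5 fell just under C3-3, so the groups overlapped. The group means were 157 ± 28.5 and 208 ± 20.6 CPM, which gave a log2 difference of 0.41 (SE, the standard error, 0.17, 95% interval 0.03 to 0.78, edgeR quasi-likelihood unadjusted p = 0.038 and adjusted p = 0.081). Cdx2 therefore did not pass over all genes. It passed without the control C3-3 (0.56, edgeR quasi-likelihood adjusted p = 0.039) and with scaling by library totals alone (0.59, edgeR quasi-likelihood adjusted p = 0.019), a scaling that also raised the median of all genes by 0.19. It was smaller and did not pass without C3 (0.30, edgeR quasi-likelihood adjusted p = 0.21), without H9 (0.34, adjusted p = 0.21) or without both C1 and C3 (0.15, adjusted p = 0.66).

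Cdx1 (ENSMUSG00000024619, chromosome 18, 61018862 to 61036199, minus strand) was at 177 CPM in C1, 127 in C3 and 148 in C3-3. The Hdac1/2-deleted mice had 128 CPM in H1, 187 in H5 and 125 in H9. The highest and the lowest of the 6 values were both in Hdac1/2-deleted mice. The log2 fold change was -0.04, with a 95% interval of -0.48 to 0.41 (edgeR quasi-likelihood adjusted p = 0.90). Changes within this interval were not excluded with 3 mice a group. The sign of the log2 fold change turned with the scaling and with single mice. H5, the mouse with the most Cdx1, had the least Cdx2 of the Hdac1/2-deleted mice. The log2 ratio of Cdx1 to Cdx2 counts within a mouse was 0.23, -0.06 and -0.35 in the controls and -0.71, 0.00 and -0.86 in H1, H5 and H9. The mean difference of -0.46 gave p = 0.30 in an exact two-sided permutation test, which cannot go below 0.10 for 3 mice against 3, and 0.375 after adjustment over 5 pairs of relatives.

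Gata4, Gata5 and Gata6 encode the 3 GATA factors of endoderm, and the annotation places Gata6 (ENSMUSG00000005836) on the plus strand of chromosome 18 from 11052064 to 11085635. Gata6 was the most uniform of the 8 factors in the controls, at 117 CPM in C1, 127 in C3 and 123 in C3-3, a coefficient of variation of 3.99%. In the Hdac1/2-deleted mice it was at 80.6 CPM in H1, 72.1 in H5 and 92.1 in H9. All 3 lay below the lowest control. The level fell by 33.3%, a log2 fold change of -0.58 (SE 0.14, 95% interval -0.89 to -0.28, edgeR quasi-likelihood adjusted p = 0.0083). Even so, 49.3% of all genes tested changed less than Gata6 in size, so its change was near the middle of the sizes seen in these libraries.

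Leaving out any 1 mouse kept Gata6 past the test. The summed stromal and muscle markers were highest in C1 and lowest in C3-3, where Gata6 was at 117 and 123 CPM. Without C1 and C3, a choice made after the data were seen, the log2 fold change was -0.59 with an edgeR adjusted p of 0.071. The genes whose pattern over the 6 mice was most like that of Gata6 were Ppapdc2 and Tango2, with root mean square differences of centred log2 CPM of 0.039 and 0.051. A noncoding gene on the other strand, 1010001N08Rik, shares 93 exon bases with Gata6. It was at 11.98 CPM in control and 4.496 CPM in Hdac1/2-deleted mice, lower by a log2 fold change of -1.41 (SE 0.30, edgeR quasi-likelihood adjusted p = 0.0056). Whether the counting used strand is not given in the sources used here, and reads in the shared bases may have gone to either gene.

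Gata4 (ENSMUSG00000021944, chromosome 14, 63198922 to 63271692, minus strand) is the GATA factor known for holding ileal genes down in the jejunum. Its level was 166 CPM in C1, 206 in C3 and 174 in C3-3, and 174, 161 and 182 CPM in H1, H5 and H9. The groups overlapped, and C3 was the highest of the 6. The log2 fold change was -0.08 with a 95% interval of -0.40 to 0.24 (edgeR quasi-likelihood adjusted p = 0.69). A 2-fold change in either direction lay outside this interval.

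Gata5 (ENSMUSG00000015627, chromosome 2, 180325133 to 180334699, minus strand) is the third endodermal relative. It was at 107 CPM in C1, 92.3 in C3 and 113 in C3-3. H1 had 90.3 CPM, the lowest of the 6, while H5 and H9 had 128.7 and 128 CPM, the highest. The log2 fold change was 0.15 (95% interval -0.23 to 0.54, edgeR quasi-likelihood adjusted p = 0.51). Its antisense gene Gata5os had 84 counts over the 6 libraries and shares 258 exon bases with Gata5. It was lower, at 0.0925 against 0.376 CPM (-1.87, SE 0.65, edgeR quasi-likelihood adjusted p = 0.046). Its Hdac1/2-deleted mean was close to the level of 3 counts, 0.0405 to 0.0790 CPM per library, so this call is weak.

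Because a ratio of 2 genes within a library does not depend on the scaling, the 3 GATA genes were also compared inside each mouse. The log2 ratio of Gata4 to Gata6 counts was 0.50, 0.70 and 0.49 in the controls and 1.11, 1.16 and 0.98 in the Hdac1/2-deleted mice, a difference of 0.52 with no overlap. For Gata5 to Gata6 it was -0.14, -0.46 and -0.13 against 0.16, 0.83 and 0.47, a difference of 0.73, again with no overlap. Both gave p = 0.10, the smallest an exact two-sided permutation test of 3 against 3 can reach, and 0.25 after adjustment over 5 pairs. The ratio of Gata4 to Gata5 overlapped between groups, with a difference of -0.21 (exact permutation p = 0.50, and 0.50 adjusted). Per kilobase of exons, Gata6 made up 19.3%, 19.4% and 19.4% of the summed level of the 3 genes in the controls, and 14.7%, 12.1% and 14.2% in H1, H5 and H9. The summed level itself overlapped, at 97.1 ± 3.78 and 91.9 ± 7.66 CPM per kilobase.

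**Figure D2:**
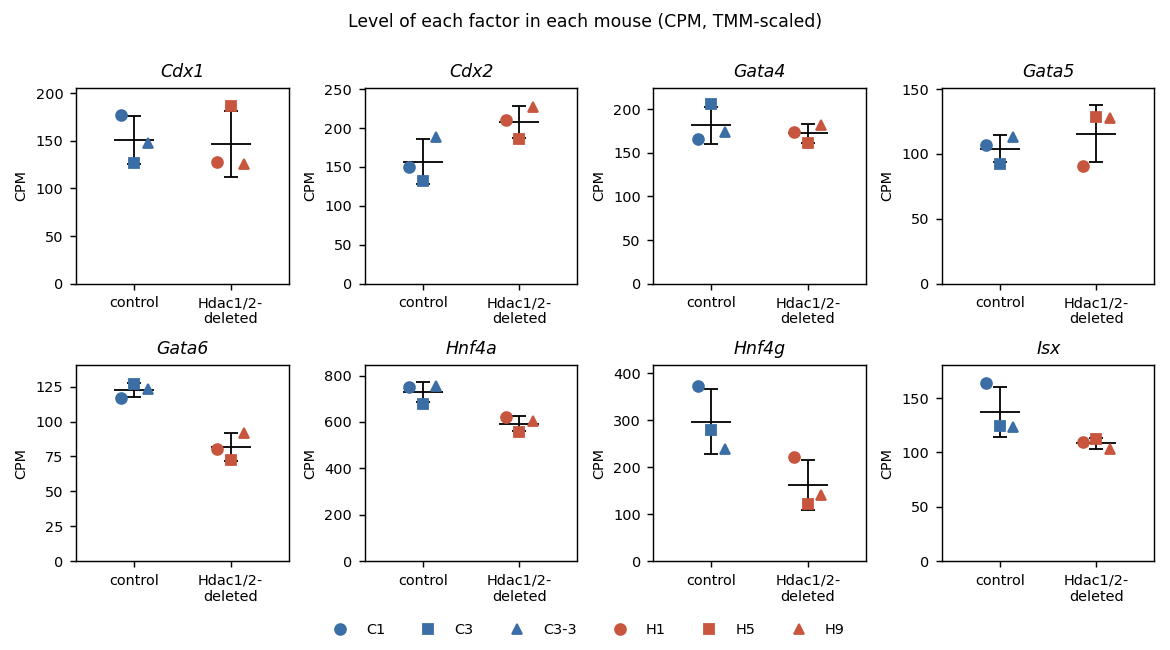
Level of each factor in CPM (y axis, from 0) in the 3 control mice (blue) and the 3 Hdac1/2-deleted mice (red), with 1 symbol per mouse and the mean ± SD in black. The Hdac1/2-deleted values of Gata6, Hnf4a, Hnf4g and Isx all lie below the control values, and those of the other 4 genes overlap them.

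Hnf4a and Hnf4g encode nuclear receptors that bind the same kind of DNA site as dimers and share many target genes in enterocytes. Hnf4g (ENSMUSG00000017688, chromosome 3, 3508030 to 3658052, plus strand) had the largest change of the 8 factors. Its level was 373 CPM in C1, 279 in C3 and 239 in C3-3, and 222 CPM in H1, 123 in H5 and 141 in H9. The groups did not overlap, but H1 came close to C3-3. The level fell by 45.6%, a log2 fold change of -0.88 (SE 0.25, 95% interval -1.46 to -0.30, edgeR quasi-likelihood adjusted p = 0.023). Of all genes tested, 65.0% changed less in size. This call rested on single mice, since it was lost without C1 (-0.67, edgeR quasi-likelihood adjusted p = 0.062), without H5 (-0.71, adjusted p = 0.086) and without H9 (-0.78, adjusted p = 0.083).

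Hnf4g was the most variable of the 8 within both groups, with coefficients of variation of 23.3% in control and 32.8% in Hdac1/2-deleted mice. Among the controls its order C1, C3, C3-3 was also the order of the summed stromal and muscle markers, an order of 3 values whose part in the result was not tested. Without C1 and C3 the log2 fold change was -0.55 with an edgeR adjusted p of 0.23. The genes with the most similar pattern were Gtf3c3 and Ccl28, at root mean square differences of 0.13 over the 6 mice, looser than the likenesses of Gata6.

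Hnf4a (ENSMUSG00000017950, chromosome 2, 163506808 to 163572910, plus strand) is made from a pair of promoters, and a count per gene adds both. Their 250 bases upstream of the RefSeq start sites are shown 5′ to 3′ because the count cannot tell them apart (RefSeq, GRCm38.p6, plus strand). Capitals mark GATAA, the core bound by zinc finger factors of that name, in the first sequence. In the second they mark TTAAT, a half-site of some homeodomain proteins. Both motifs were read on both strands.

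Hnf4a upstream start, chr2:163506607-163506856: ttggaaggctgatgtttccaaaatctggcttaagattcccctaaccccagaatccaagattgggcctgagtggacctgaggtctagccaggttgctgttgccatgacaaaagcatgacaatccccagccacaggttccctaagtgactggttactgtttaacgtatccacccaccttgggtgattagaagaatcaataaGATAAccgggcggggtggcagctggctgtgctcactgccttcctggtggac
Hnf4a downstream start, chr2:163546905-163547154: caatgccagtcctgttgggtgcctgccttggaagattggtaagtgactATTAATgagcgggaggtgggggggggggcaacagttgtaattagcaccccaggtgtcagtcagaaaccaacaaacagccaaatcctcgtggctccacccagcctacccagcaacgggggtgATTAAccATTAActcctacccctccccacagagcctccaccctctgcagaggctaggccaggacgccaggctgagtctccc

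The upstream sequence held 1 GATAA and the downstream sequence 4 matches to TTAAT, of which 1 pair overlaps. Of 32851 promoters of the same length, 22.6% held GATAA and 24.9% held TTAAT, so either match is common. CAAAGTCCA and CAAAGGTCA, forms of the HNF4 site, were found in neither. The Hnf4a level was 752 CPM in C1, 678 in C3 and 754 in C3-3, and 619.96 CPM in H1, 556 in H5 and 603 in H9. All Hdac1/2-deleted values lay below all control values, with small spread in both groups (728 ± 43.7 and 593 ± 33.3 CPM). The log2 fold change of -0.30 had a 95% interval of -0.62 to 0.03 and did not pass (edgeR quasi-likelihood adjusted p = 0.13). With library totals alone it was -0.11. Hnf4aos, a noncoding gene on the opposite strand, shares no exon bases with Hnf4a, and was lower at 2.60 against 5.08 CPM (log2 fold change -0.96, SE 0.29, edgeR quasi-likelihood adjusted p = 0.026).

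The log2 ratio of Hnf4a to Hnf4g counts was 1.01, 1.28 and 1.66 in the controls and 1.48, 2.18 and 2.10 in H1, H5 and H9. H1 fell inside the control range, and the difference of 0.60 gave p = 0.20 in an exact two-sided permutation test and 0.333 after adjustment over the 5 pairs. No values could pass 0.05 in that test, so whether Hnf4g fell more than Hnf4a cannot be read from it. The sum of both genes per kilobase of exons did not overlap between groups, at 298, 247 and 247 CPM per kilobase in the controls and 213, 162 and 178 in the Hdac1/2-deleted mice.

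**Figure D3:**
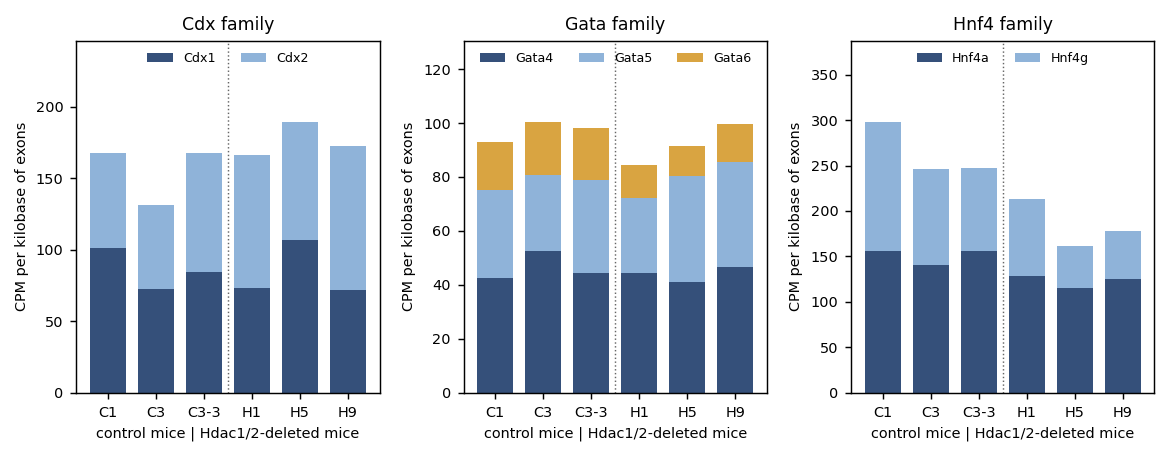
Stacked levels of the Cdx, Gata and Hnf4 genes in each mouse, in CPM per kilobase of exons (y axis, from 0), controls left and Hdac1/2-deleted mice right of the dotted line. The Hnf4 stacks are lower in H1, H5 and H9, at 162 to 213, than in the controls, at 247 to 298, and the Gata6 segment is smaller there, within Gata stacks of overlapping height.

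Isx (ENSMUSG00000031621, chromosome 8, 74873173 to 74893506, plus strand) encodes the intestine-specific homeobox repressor. The 250 bases before its RefSeq start are shown because CDX2 is a known regulator of Isx, and capitals mark the HNF4 core CAAAG (RefSeq, GRCm38.p6, plus strand).

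Isx, chr8:74872924-74873173: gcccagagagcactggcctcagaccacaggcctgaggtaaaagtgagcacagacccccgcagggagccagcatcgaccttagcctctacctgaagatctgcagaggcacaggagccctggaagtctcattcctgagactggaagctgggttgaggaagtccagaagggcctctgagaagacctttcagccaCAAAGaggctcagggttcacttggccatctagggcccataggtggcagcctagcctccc

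The CDX core TTTAT, present on 1 or both strands in 37.3% of promoters, was not among these letters, and CAAAG, present in 48.6% and also contained in both longer HNF4 sites, occurred 1 time. Isx was at 164 CPM in C1, 124 in C3 and 124 in C3-3, and at 109.7 CPM in H1, 112 in H5 and 103 in H9. The Hdac1/2-deleted mice were all lower and close together, with an SD of 4.81 CPM, and the control spread came from C1. The log2 fold change of -0.34 had a 95% interval of -0.68 to -0.00 (edgeR quasi-likelihood unadjusted p = 0.049 and adjusted p = 0.0999), and it did not pass over all genes. It was -0.19 without C1 (edgeR quasi-likelihood adjusted p = 0.33), -0.18 without C1 and C3 and -0.16 with library totals.

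Levels of different genes were compared per kilobase of annotated exons. In control IEC the order, in CPM per kilobase, was Hnf4a at 150.8 ± 9.04, Hnf4g at 113 ± 26.3, Cdx1 at 86.0 ± 14.4, Isx at 76.6 ± 12.9, Cdx2 at 69.4 ± 12.6, Gata4 at 46.6 ± 5.44, Gata5 at 31.7 ± 3.26 and Gata6 at 18.8 ± 0.75. Each of the first 4 overlapped the next in range between mice, while Cdx2, Gata4, Gata5 and Gata6 were separated from one another. In Hdac1/2-deleted IEC, Hnf4a remained the most abundant at 123 ± 6.89, followed by Cdx2 at 91.9 ± 9.11, Cdx1 at 83.9 ± 19.9 and Hnf4g at 61.5 ± 20.2 CPM per kilobase. Hnf4g thus moved from the second place to the fourth and Cdx2 from the fifth to the second, though the ranges of Cdx2 and Hnf4g overlapped in these mice, as did those of Cdx2 and Cdx1, of Cdx1 and Hnf4g, and of Hnf4g and Isx. Even Gata6, the least abundant, was above 84.2% of the genes tested in control IEC on this scale, and above 78.2% in Hdac1/2-deleted IEC.

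Relatives of the GATA factors, forkhead factors and other factors of the gut epithelium were read from the same fit. Foxa3, a forkhead factor of endoderm, rose from 10.9 to 35.5 CPM (1.71, SE 0.16, edgeR quasi-likelihood adjusted p = 7.4e-05). Gata2, a blood and vessel GATA factor, had 3, 5 and 4 counts in the controls and 36, 30 and 77 in the Hdac1/2-deleted mice, and passed the test at these low counts. Foxa1 at -0.04, Foxa2 at 0.23 and Gata3 at -0.85 on the log2 scale did not pass, and Gata1 had too few counts to be tested.

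Of 16 other transcription factors and cofactors, 6 fell and 2 rose, with a median of -0.47. Prdm1, the repressor BLIMP1 of the immature gut (-1.88), Creb3l3, a factor of lipid metabolism (-1.18), and Ehf, an epithelial ETS factor (-0.79), were among those that fell (log2 fold changes). Zfpm1, which encodes the GATA cofactor FOG1, rose by 0.91, and Tcf7l2, a nuclear effector of WNT signalling, by 0.62. These smaller changes rested on single mice. The call of Zfpm1 held in 10 of 15 alternatives (0.75 to 1.34) and was lost without C1, C3-3, H1, H5 or H9. That of Tcf7l2 held in 11 (0.53 to 0.80) and was lost without C3-3, H5 or H9. That of Ehf held in 9 (-0.99 to -0.57) and was lost without C1, C3-3, H5 or H9. Pdx1, a factor of the duodenum and pancreas, was at 0.98 and did not pass (edgeR quasi-likelihood adjusted p = 0.21).

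Genes known as targets of these factors were next read from the same fit. Of 10 CDX target genes, 4 fell and 0 rose, with a median log2 fold change of -0.56. The share past the limit in either direction was near the 40.8% of all genes tested, which divides into 20.3% lower and 20.5% higher. Lct, which encodes the milk sugar enzyme lactase, was at 5067, 8820 and 6046 CPM in the controls and 1225, 1572 and 2231 CPM in the Hdac1/2-deleted mice (-1.99, SE 0.30, edgeR quasi-likelihood adjusted p = 0.00087). Mep1a, a brush border protease, fell by 1.67, Gucy2c, the guanylin receptor, by 0.92, and Krt20, a keratin of differentiated cells, by 0.57 on the log2 scale. The call of Krt20 held in 9 of 15 alternatives, with a range of -0.71 to -0.38, and was lost without C1, C3-3, H1 or H5 and with library totals. Sis, sucrase-isomaltase, at -0.55 (edgeR quasi-likelihood adjusted p = 0.086) and the cadherin Cdh17 at -0.18 did not pass.

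Of 12 HNF4 lipid and carrier target genes, 6 fell and 1 rose, with a median of -0.63. Apoa4, an apolipoprotein of chylomicrons, was at 32172, 44651 and 38355 CPM in the controls and 9704, 3576 and 5569 CPM in the Hdac1/2-deleted mice (-2.61, SE 0.38, edgeR quasi-likelihood adjusted p = 0.00073). Pck1, a gluconeogenic enzyme, fell by 4.83, Apoc3 by 2.25 and the fatty acid carrier Fabp2 by 2.13 on the log2 scale. Ttr, the thyroid hormone and retinol carrier transthyretin, rose from 1.56 ± 0.25 to 26.3 ± 22.9 CPM. Fabp1, the other fatty acid carrier tested, was at -0.38 and did not pass. Of 12 brush border genes, 4 fell and 1 rose, Espn, an actin bundler, at 1.15, and the median was -0.47. The share of brush border genes past the limit in either direction was also near that of all genes.

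Genes that mark position along the gut did not move as 1 group. Of 6 proximal genes, which include Lct again, 2 rose and 2 fell, with Cybrd1, an iron reductase, at 3.12, S100g, a calcium carrier, at 1.02 and the folate transporter Slc46a1 at -1.15 on the log2 scale. The median was 0.32. Of 5 tested ileal genes, 2 rose and 1 fell, with a median of 0.63. Slc10a2, the ileal bile acid transporter, was at 2.10, 0.22 and 1.13 CPM in the controls and 6.99, 5.32 and 7.01 CPM in the Hdac1/2-deleted mice (2.48, SE 0.66, edgeR quasi-likelihood adjusted p = 0.019). Slc51b, a bile acid exporter subunit, rose by 0.63, while Cubn, the vitamin B12 receptor, fell by 3.84. The calls of both rising ileal genes rested on single mice. Slc51b passed in 10 of 15 alternatives (0.33 to 0.83), not without C1, C3, H1 or H9, and Slc10a2 in 12 (2.00 to 3.27), not without C3-3, H1 or H9. Slc46a1 passed in 13 (-1.40 to -0.74), not without H1 or H5. Fabp6, the ileal bile acid carrier, ranged from 0.22 to 7.02 CPM in the controls and from 1.62 to 8.73 CPM in the Hdac1/2-deleted mice and did not pass, and Fgf15 had too few counts to be tested.

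Both ISX target genes rose, with a median log2 fold change of 2.99. Bco1, the enzyme that cleaves beta-carotene, was at 1.71, 1.35 and 1.54 CPM in the controls and 13.4, 19.98 and 15.9 CPM in the Hdac1/2-deleted mice (3.42, SE 0.24, edgeR quasi-likelihood adjusted p = 1.9e-05). Scarb1, a receptor for lipoproteins and carotenoids, was at 3.87, 17.8 and 7.87 CPM against 65.9, 63.9 and 45.2 CPM (2.57, SE 0.54, edgeR quasi-likelihood adjusted p = 0.010). In both genes the groups did not overlap, as in 53.2% of all genes. Isx itself also did not overlap, with the lowest control and the highest Hdac1/2-deleted mouse at 124 and 112 CPM. However, Isx did not pass (-0.34, edgeR quasi-likelihood adjusted p = 0.0999) and was at -0.19 without C1. A link between the level of Isx and these 2 genes was not tested. Of 11 genes of the retinoic acid route to Isx, 6 fell and 1 rose, with a median of -0.70. Lrat, which esterifies retinol, fell by 2.42, Aldh1a1, a retinaldehyde dehydrogenase, by 0.94, and the receptor Rarg by 1.13 on the log2 scale. The call of Rarg was weak, held in 7 of 15 alternatives, with a range of -1.50 to -0.70, and lost without C1, C3, C3-3, H1 or H9. The receptor Rarb had 36, 26 and 17 counts in the controls and 1, 0 and 1 in the Hdac1/2-deleted mice. Cyp26b1, which clears retinoic acid, rose from 20, 10 and 4 counts to 187, 98 and 138.

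Genes of the neighbouring organs were read last. Of 7 tested gastric genes, 2 rose and 1 fell, with a median log2 fold change of -0.24, and the other 11 of the 18 listed were not tested. Tff2, a trefoil peptide, had 3, 6 and 1 counts in the controls and 256, 419 and 534 in the Hdac1/2-deleted mice, and Anxa10 had 0, 6 and 3 against 3819, 507 and 1030. Together with Capn8, which fell by 1.59 on the log2 scale, these 3 were the gastric genes that passed. The summed gastric level was 7.04 to 7.96 CPM in control and 29.0 to 58.7 CPM in Hdac1/2-deleted mice. Anxa10 and Tff2 carried this rise, with means of 27.2 and 7.72 CPM in Hdac1/2-deleted mice, against 0.0548 and 0.0574 CPM in control. The sum therefore does not show a general rise of the list. Of the 4 tested genes that did not pass, Gkn3 at -0.97, Pgc at -0.50 and Atp4a at -0.24 were lower, and Ctse at 0.80 was higher (log2 fold changes). Of 5 tested colonic genes, 4 fell and 0 rose. The ion transporter gene Slc26a3, the carbonic anhydrase gene Car4 and the water channel gene Aqp8 were among them. The call of Car4 was lost without C1 and that of Aqp8 without H1 or H9. Slc26a3 was at 158 ± 14.3 CPM in control and 63.2 ± 12.1 CPM in Hdac1/2-deleted mice (-1.32, SE 0.17, edgeR quasi-likelihood adjusted p = 0.00041). Car1, singled out after its values were seen, had 3, 0 and 0 counts in the controls and 16, 1261 and 72 in the Hdac1/2-deleted mice, and did not pass (edgeR quasi-likelihood adjusted p = 0.058).

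**Figure D4:**
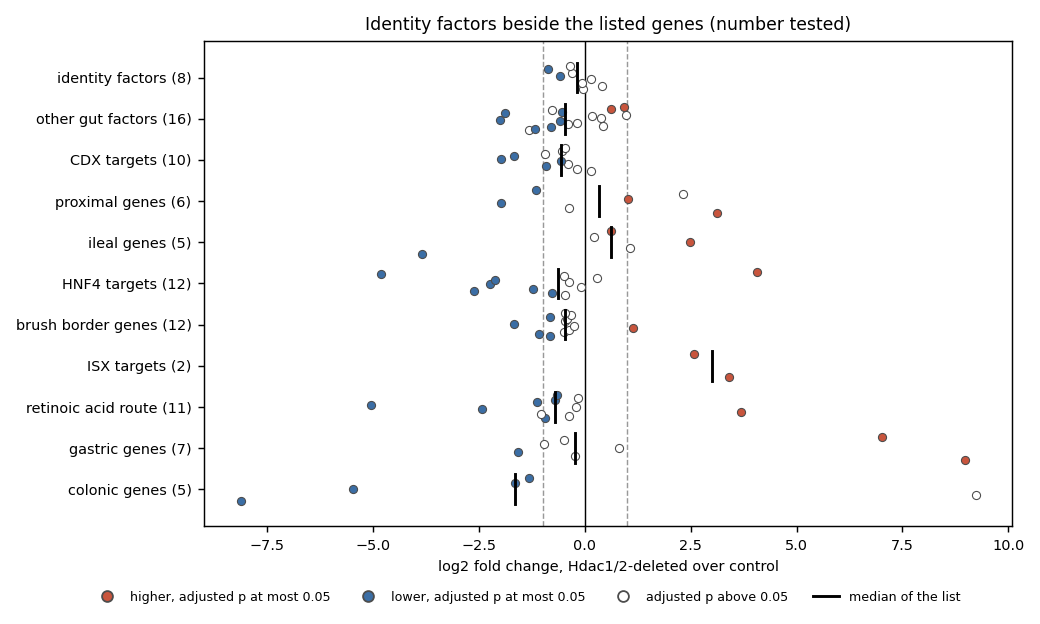
Log2 fold change in Hdac1/2-deleted over control IEC (x axis) of the 8 identity factors and of the tested genes in each list (rows, number tested in brackets), coloured where the adjusted p was at most 0.05, with the list median as a black bar and 2-fold as dashed lines. The identity factors span -0.88 to 0.41, and single genes of the other lists drawn reach from -8.13 to 9.23, the latter being Car1, where the fitted size depends on the prior count because the controls are near 0.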

How the data were processed

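RNA of jejunal IEC from 3 mice per group was sequenced as directional poly(A) libraries read on an Illumina instrument. According to the methods, the authors' aligner was STAR and the genome GRCm38, while the submitters' processing notes list STAR 2.4.0f1, bcl2fastq 1.8.4 and the mm9 build, so the build is unsettled. The counting program, annotation and strand setting are not given in the sources used here. The deposited values used are whole-number counts per gene, not normalized, and no gene had under 10 counts over the 6 samples. The same table holds scaled counts, log fold changes, mean log CPM and p-values from DESeq and edgeR, none of which were used.

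Counts were filtered with filterByExpr, scaled with TMM (factors 0.892 to 1.14) and fitted with edgeR 4.0.16's robust quasi-likelihood model in R 4.3.3, with a prior count of 0.125, no covariates and Benjamini-Hochberg adjustment over 15618 genes. The standard error is the log2 fold change divided by the square root of F. The floor of 3 counts was 0.0405 to 0.0790 CPM per library and covers counting error only. Within-mouse ratios were tested by exact permutation. Gene positions and exon lengths came from GENCODE release 21 for mouse, matched by identifier for all 8 factors, and promoters and motif shares from RefSeq. RefSeq upstream sequences were used for Cdx2, Gata5, Hnf4a and Isx. The steps were tested on simulated data.

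The 8 factors and the lists were chosen with earlier results of these data known. The genes named are the 8 factors, up to 4 largest rises and 4 largest falls among passing genes of each list, a set of targets and relatives given whether they passed or not, the 2 genes most like each factor that passed (mean log2 CPM 3 or more), and genes overlapping a factor. Some genes are in more than 1 list, and some are not reported here. Alternatives changed the scaling, the test (DESeq2 1.42.0), the filter, the prior count, the fit and the limits, and left out each mouse.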

Additional observations from a re-analysis of the deposited data

How the results depend on the processing

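The 8 factors under 15 alternatives gave 120 log2 fold changes, of which 105 kept their sign and their side of the limit. The count of factors past the test was 0 with the 2-fold limit and 1 with the p limit set to 0.01, and ranged from 1 to 3 with 1 mouse left out. Without C1 and C3, an alternative chosen after seeing the data that leaves C3-3 as a lone control assumed to vary like the others, it was 0. The count over all genes was then 4053 (2105 higher and 1948 lower), and 3934 with the 2-fold limit. Cdx1 turned positive with library totals (0.14) and without C1 and C3 (0.0028), and ranged from -0.24 to 0.10 with 1 mouse left out. Gata4 turned positive with library totals (0.12), ranged from -0.13 to 0.026 with 1 mouse left out and did not pass under any alternative run. Hnf4g did not pass with library totals (-0.68, edgeR quasi-likelihood adjusted p = 0.098). Gata6 passed in 14 of 15 alternatives. The cause of these changes was not tested. With 1 mouse left out, the ratio differences kept their signs in all 5 pairs, but that of Cdx1 to Cdx2 ranged from -0.73 (without H5) to -0.30 (without H9) and that of Gata4 to Gata5 from -0.39 (without H1) to -0.04 (without C3). Of the 153 listed genes tested, 79 passed, beside 40.8% of all genes tested, and 63 to 77 did with 1 mouse left out. Without C1 and C3 the count was 60, and the calls of Aldh1a1, Anxa10, Cubn, Lgr5, Olfm4, S100g and Ttr were among those lost.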

Other observations

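Markers of cell state moved unevenly beside the identity factors. Of 10 villus enterocyte markers, 4 fell and 1 rose, with a median log2 fold change of -0.48. Alpi, intestinal alkaline phosphatase, rose by 1.203 (edgeR quasi-likelihood adjusted p = 0.019), while Slc15a1, the peptide transporter, fell by 2.69, Treh, trehalase, by 1.76 and Slc2a2, a glucose transporter, by 0.87 on the log2 scale. The call of Slc2a2 held in 10 of 15 alternatives (-1.39 to -0.51) and was lost without C3-3, H1, H5 or H9, and that of Alpi held in 12 (0.93 to 1.68) and was lost without C3-3, H1 or H5. Of 12 crypt and cycling markers, 2 fell and 1 rose, with a median of 0.03. Olfm4 and Lgr5, both stem cell markers, fell, at -1.58 and -1.54, and Mcm2, a replication factor, was higher at 1.02. Of the secretory and tuft cell markers, the Paneth cell genes Ang4 and Lyz1 fell, with log2 fold changes of -5.33 and -4.83. Among the endocrine cell genes, Chgb was higher at 0.52, while Chga at 0.02 and Neurod1 at -0.23 did not pass. The call of Chgb held in 9 of 15 alternatives (0.39 to 0.69) and was lost without C3, C3-3, H5 or H9 and with upper quartile scaling. The tuft cell genes Dclk1 and Pou2f3 fell, at -4.40 and -1.55, while Trpm5 was higher at 1.38.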
